A study of Mus musculus with 70 samples.

Results

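The replication-dependent histone genes were taken as all protein-coding genes of the mouse GENCODE annotation (mm10) whose symbols start with Hist1h, Hist2h, Hist3h or Hist4h. This gave 67 genes of 20807 on the autosomes: 6 for linker histone H1, 18 for H2A, 18 for H2B, 12 for H3 and 13 for H4. Their transcription start sites (TSSs) fell in 31 of 35186 TSS bins of 10 kb, and a bin shared by several genes was counted once and named by its genes. H3K4me3 PLAC-seq, which enriches ligated chromatin contacts for fragments that carry the promoter mark H3K4me3, had been performed in C57BL/6N mouse tissues. At E12.5 these were liver (LV), craniofacial prominence (CF), limb (LM) and 4 neural tissues, namely neural tube (NT), hindbrain (HB), midbrain (MB) and forebrain (FB). FB was also taken on each day from E13.5 to E16.5 and at P0. All were unmanipulated tissues, with 2 replicates in each of the 12 tissue-stages, and the labels gave no genetic or drug treatment. The deposited interactions were pairs of 10-kb bins that the MAPS caller had kept at an FDR below 1% and at least 2 times the expected read pairs, over 20 kb to 1 Mb. Of 248620 distinct interactions in the 12 pooled call sets, 304 had an end in a histone TSS bin.

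Replication-dependent histone genes supply the histones that package newly copied DNA, and their transcription is tied to S phase. Core histones H2A, H2B, H3 and H4 form the nucleosome, and H1 binds the linker DNA. Their mRNAs end in a stem-loop in place of a poly(A) tail, and the loop is bound by Slbp. In the nucleus the gene clusters gather in histone locus bodies with the coactivator Npat and the mRNA 3′ processing factors. The genes lie in a few dense clusters, H2A and H2B genes often sharing a divergent promoter. CTCF, which stops the cohesin complex, sits at many loop ends, and loops most often join motifs that point towards each other.

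With neighbouring TSSs over 100 kb apart placed in separate groups, the 67 genes formed 7 subclusters. On chromosome 13, the first subcluster held 18 genes in 7 bins over 122 kb (chr13:21715763-21837530), and the second held 5 genes in 2 bins (chr13:22035164-22043676). The gap between them was 198 kb. The third, 1487 kb further on, held 29 genes in 13 bins over 233 kb (chr13:23531050-23764406), including 5 of the 6 H1 genes. Since calls stopped at 1 Mb, contacts between the second and the third could not be seen. The fourth (chr13:23933773-23934851) was the divergent pair Hist1h2aa and Hist1h2ba, an H2A and an H2B gene known from testis. Chromosome 3 held 10 genes in 5 bins (chr3:96219865-96270132), chromosome 11 held Hist3h2a and Hist3h2ba (chr11:58948920-58956830), and chromosome 6 held Hist4h4 (chr6:136801553-136804415). Some bins also held the TSS of another gene: Trim17 with Hist3h2a, Trim38 with Hist1h1a, Hist1h3a and Hist1h4a, Bola1 with Hist2h2ab, and H2afj with Hist4h4. An interaction of these bins cannot be assigned to 1 of the genes.

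The CTCF sites below are shown because they lie in the bins that joined the first and second subclusters of chromosome 13 most often, and in the 2 most recurrent contacts of chromosome 3, both of the Hist2h2bb bin. Each is read 5′ to 3′ on the strand of the motif (mm10), with the 19-base match to a matrix built from the deposited CTCF peaks in capitals and 10 flanking bases on either side in lower case.
Hist1h2ai bin, chr13:21714909-21714927, + strand: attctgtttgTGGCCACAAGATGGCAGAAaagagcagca
Hist1h2ai bin, chr13:21710087-21710105, + strand: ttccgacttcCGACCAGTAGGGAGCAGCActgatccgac
Hist1h4j bin, chr13:21734277-21734295, - strand: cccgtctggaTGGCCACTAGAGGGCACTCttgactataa
Hist1h2ah bin, chr13:22030628-22030646, - strand: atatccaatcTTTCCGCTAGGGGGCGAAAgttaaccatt
Hist1h2ag bin, chr13:22044315-22044333, - strand: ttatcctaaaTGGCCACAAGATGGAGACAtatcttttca
Hist2h2bb bin, chr3:96263470-96263488, - strand: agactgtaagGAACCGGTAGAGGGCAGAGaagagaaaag
partner bin without a promoter, chr3:96497534-96497552, + strand: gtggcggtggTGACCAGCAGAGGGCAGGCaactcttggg
partner bin without a promoter, chr3:96503267-96503285, - strand: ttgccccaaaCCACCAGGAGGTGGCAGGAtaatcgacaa
The Hist1h2ai bin, which also holds the TSSs of Hist1h2bl and Hist1h3h, carried forward motifs only. The Hist1h2ah bin (with Hist1h2bk) and the Hist1h2ag bin (with Hist1h2bj and Hist1h4i) carried reverse motifs only, so the outer ends of the first and the second subcluster faced each other. The second site of the Hist1h2ai bin was in 11 of the 12 CTCF peak lists and the others were in all 12. Peak fold enrichment over input had a median of 25.1 (16.4 to 30.1 over lists) at the first Hist1h2ai site, 19.8 (10.8 to 35.1) at the Hist1h2ah site and 19.3 (12.2 to 36.5) at the Hist1h2ag site.

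The divergent promoter of Hist1h2ah and Hist1h2bk is shown because its bin had more calls than any other histone bin. The window runs from 250 bases before to 50 bases after the RefSeq start of Hist1h2bk (GRCm38.p6, chr13:22035571-22035870, + strand) and also covers the start of Hist1h2ah, 178 bases away on the other strand. Capitals mark CCAAT and TATAAA and their reverse complements.
Hist1h2bk: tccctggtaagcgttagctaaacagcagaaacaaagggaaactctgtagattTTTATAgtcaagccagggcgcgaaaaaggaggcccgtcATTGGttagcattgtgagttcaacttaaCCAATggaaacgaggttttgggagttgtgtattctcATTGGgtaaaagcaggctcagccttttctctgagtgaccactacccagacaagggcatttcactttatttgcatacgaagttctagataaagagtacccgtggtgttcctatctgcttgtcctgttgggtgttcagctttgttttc
Such windows were at hand for 61 of the 67 genes. CCAAT, in either direction, was in 52 of them (85.2%), against 37.9% of 27025 RefSeq promoter windows. It was in 18 of 18 H2A, 16 of 16 H2B, 10 of 10 H3 and 5 of 5 H1 windows, but in 3 of 12 H4 windows. TATAAA, in either direction, was in 34 windows (55.7%), against 14.2% of all. The median share of G and C bases was 45.3% in the histone windows and 52.7% in all. What part this had in the matches was not tested. A match to CCAAT and a match to TATAAA can share at most 1 base. Hist1h2bq and Hist1h2br, both H2B genes, had identical windows. These matches describe the letters only. Divergent pairs share much of their windows, so the genes are not independent of each other.

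Every tissue-stage contained contacts of the histone clusters, and 58 to 112 were called per pooled set (median 81.5). FB at E12.5 had 61, MB 78, HB 72, NT 85, LM 90, CF 102 and LV 58. FB had 85 at E13.5 and 64 at E14.5. A day later it had 100, and then 70 at E16.5 and 112 at P0. The pooled sets held 51264 to 79677 interactions in all, except LV with 21945. As a share of these, histone interactions made up 0.106% to 0.167% in the 11 other sets and 0.264% in LV. LV thus had about as many histone contacts as FB at E12.5 (58 and 61), in a much smaller call set. Single replicates held 20 to 89, with a median of 43.5. Replicates shared 41.8% to 61.5% of their mean number of histone interactions, against 48.7% to 57.9% over all interactions. In 21.2% to 41.4% of histone interactions the other end was a histone bin too.

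**Figure D1:**
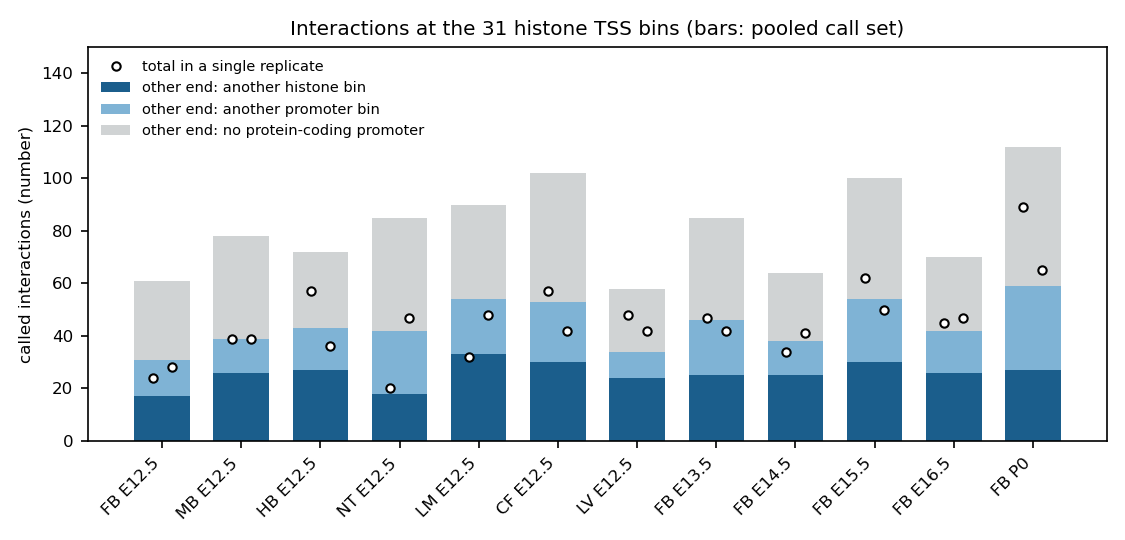
Number of called interactions at the 31 histone TSS bins in the 12 pooled call sets (stacked bars, by what lies at the other end) and in each single replicate (open circles). Bars reach from 58 in LV to 112 in FB at P0, and histone-to-histone contacts number 17 to 33 in each.

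Single replicates held 11396 to 63868 interactions in all, the 2 LV libraries 11396 and 15016 of them. Tissue labels were checked by pooled interaction numbers at marker TSS bins. Both MB and all 3 CF markers had their highest E12.5 number in their own tissue, among them midbrain gene Otx2 (38 in MB, at most 18 elsewhere) and Alx1 (13 in CF, at most 1 elsewhere). So did Emx2 (132) and Lhx2 (117) in FB, but 0 of 3 HB and 1 of 4 LM markers did. Of those, Hoxb1 had 12 in HB and 18 in NT, Egr2 4 in HB and 18 in CF, and Tbx5 7 in LM and 14 in HB, while Prrx1, of limb and face mesenchyme, had 50 in LM, 51 in CF and at most 4 elsewhere. Of the LV markers, Alb and Hnf4a had 0 in LV, Afp 1 and Apoa1 1, so these calls carried no positive liver signature. Gata1 lies on the X chromosome, which was not called. The calls count contacts and hold no RNA, and fewer dividing cells in a tissue and weaker contacts per cell cannot be told apart in these bulk samples.

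Of the 31 histone bins, 29 (93.5%) had a pooled call in at least 1 tissue-stage, against 70.1% of all TSS bins. Summed over the 12 tissue-stages, a histone bin had a median of 35 interactions and any TSS bin 3. Among bins with a call, the medians were 44 and 9. All TSS bins were counted with or without H3K4me3, which a call requires at an end. The Hist1h2ah bin led with a sum of 128, and its pooled number ranged from 8 in FB at E16.5 to 13 in NT and CF. Next came the Hist1h2ai bin at the far end of the first subcluster with 110, and the Hist1h2ag bin with 88. In the third subcluster the bin of Hist1h2ab, Hist1h3b and Hist1h4b had 64 and the bin of Hist1h2bb and Hist1h3c had 61. On chromosome 3 the bin of Hist2h2bb, Hist2h3b and Hist2h4 had 74 and the bin of Hist2h2ac and Hist2h2be 52. The bin of Hist3h2a, an H2A gene on chromosome 11, had 73, of which 16 were in FB at P0, and the Hist4h4 bin had 20.

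**Figure D2:**
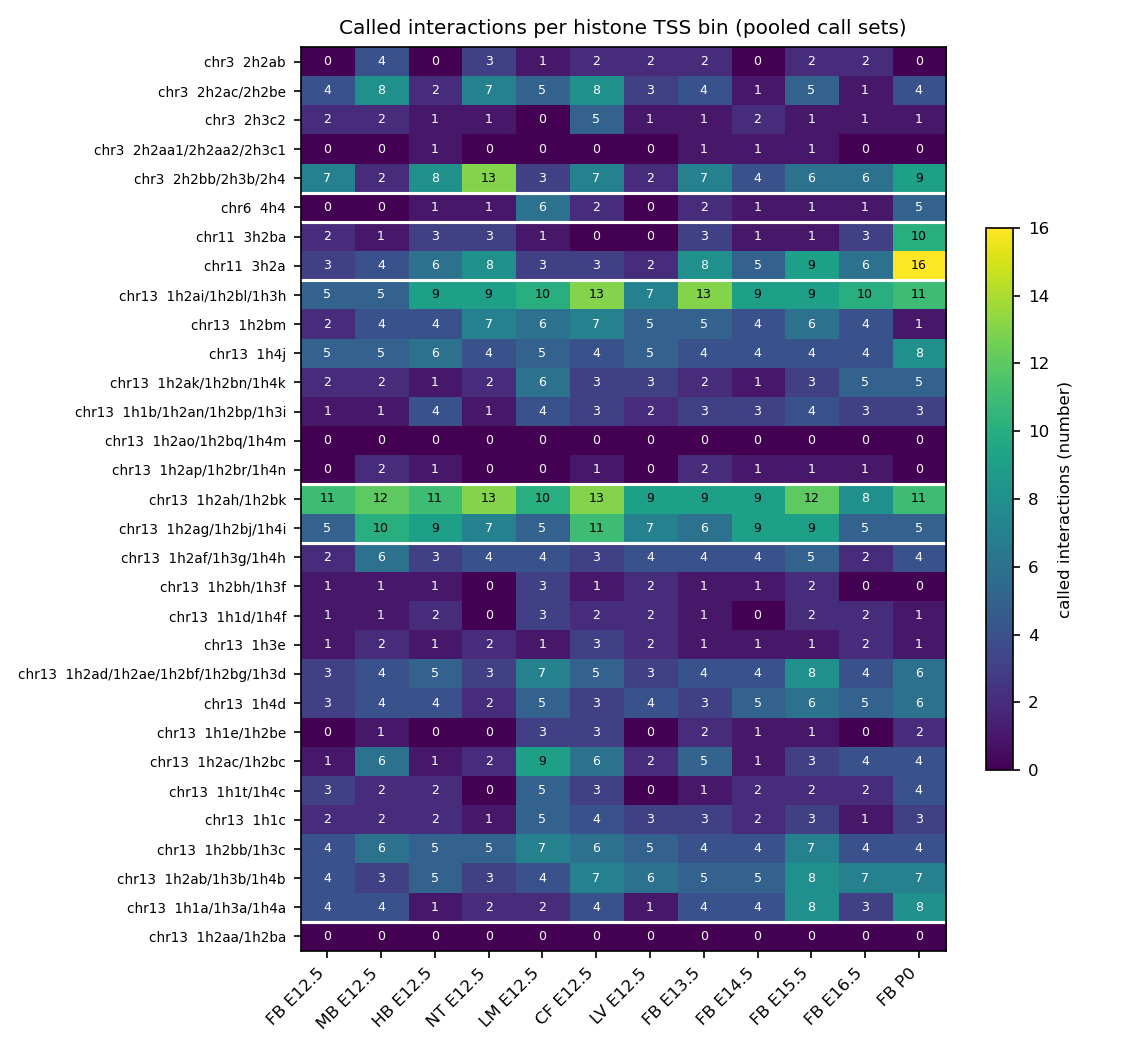
Number of pooled interactions of each histone TSS bin (rows, in genome order, white lines between subclusters, gene names without their Hist prefix) in the 12 tissue-stages (columns). The 2 bins of the second chromosome 13 subcluster and the 1h2ai bin have calls in every column, and the 1h2ao bin and the 1h2aa bin have none.

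The 2 bins without a call differed in how much of their sequence is unique. Hist1h2aa and Hist1h2ba had 0 pooled interactions, although 90.1% of the 31-base words of their bin occur once in the assembly. The bin of Hist1h2ao, Hist1h2bq and Hist1h4m also had 0, and only 2.24% of its words occur once. The bin of Hist1h2ap, Hist1h2br and Hist1h4n, where the Hist1h2br promoter window equals that of Hist1h2bq, had 9 interactions and 8.29% such words. In the other 29 bins this share was 73.9% to 97.3%, and in 351 TSS bins taken at even steps its median was 94.8%. Reads had been kept only where they mapped uniquely, and what part this had in the numbers of these 2 bins was not tested.

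The first and second chromosome 13 subclusters were joined in every tissue-stage. Of 14 possible bin pairs between them, 200 to 330 kb apart, 6 (LM) to 11 (MB and FB at E15.5) were called, with a mean of 8.92 ± 1.51 (SD, n = 12 tissue-stages) or 63.7%. Among all 131316 pairs of TSS bins at these distances, 1.98% were called on average (0.891% to 2.82% by tissue-stage). These pairs were counted with or without H3K4me3 at an end, which a call requires, so many may not have been testable. The median ratio of observed to expected read pairs over the called pairs was 2.50 to 3.71. In single replicates 0 to 10 of the 14 were called, and 23 of 24 libraries had at least 4. The exception was replicate 1 of LM with 0, and replicate 2 of LM had 6. Replicate 1 of LM held 12461 interactions in all, the fewest outside LV. The 2 LV libraries, with 15016 and 11396 in all, had 10 and 9 of the 14 pairs.

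The outermost contact was the strongest of those called in at least 20 libraries. Hist1h2ai to Hist1h2ag (330 kb) was called in 22 of 24 libraries at an observed to expected ratio of 5.12 ± 1.14 (SD over these 22), with a lowest value of 3.00, a median of 5.30 and a highest of 7.93. The lowest was in FB at E12.5 and the highest in FB at E15.5, and the 2 LV libraries had 4.35 and 3.35. Hist1h2ai to Hist1h2ah (320 kb) was called in 22 libraries at 3.70 ± 0.697. Both contacts were missing from replicate 1 of LM. Further in, Hist1h2bm and Hist1h4j each met the Hist1h2ag bin in 18 libraries, at 3.57 ± 0.625 and 3.12 ± 0.548. The bin of Hist1h1b, Hist1h2an, Hist1h2bp and Hist1h3i, with the only H1 gene of the first subcluster, met the Hist1h2ah bin in 13 libraries at 2.67 ± 0.368. Between these subclusters 11 of the 14 pairs were called in some library, 9 of them in 12 libraries or more. Calls require H3K4me3 at an end, so a pair that was not called was not shown to lack contact.

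**Figure D3:**
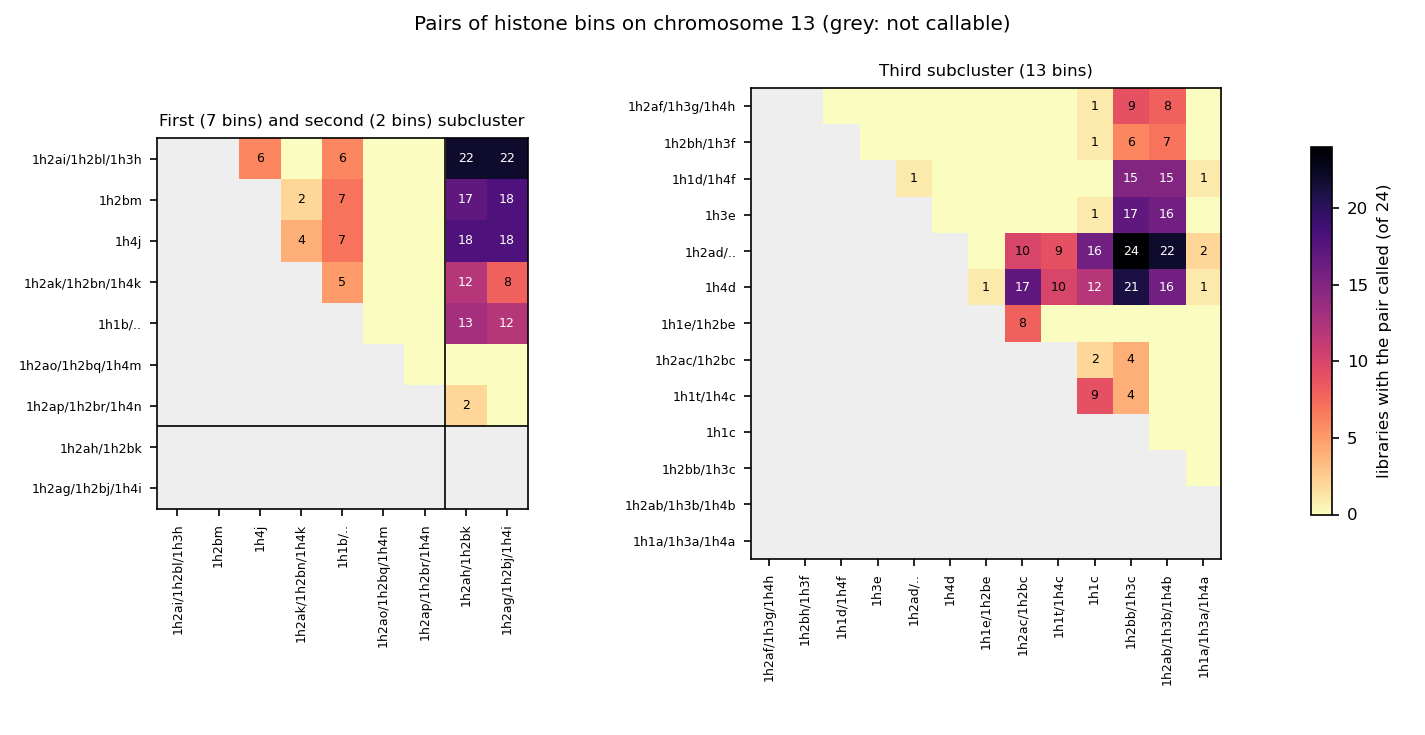
Number of the 24 libraries in which each pair of chromosome 13 histone bins was called, for the first and second subclusters (left, black lines between them) and the third (right). Axes list bins by their genes without the Hist prefix, in genome order, and grey cells are pairs under 20 kb apart or mirror images. The upper right block of the left panel holds counts up to 22, above the 7 at most within the first subcluster, and the 1h2ad bin with the 1h2bb bin reaches 24.

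Within the third subcluster, the most recurrent contacts joined bins near its start with bins near its end. Of 69 possible pairs, 9 to 21 were called per pooled set, 20.9% on average. Of all TSS bin pairs 20 to 250 kb apart, again with or without H3K4me3, 2.07% were called. The pair of the Hist1h2ad bin (with Hist1h2ae, Hist1h2bf, Hist1h2bg and Hist1h3d) and the Hist1h2bb bin (with Hist1h3c), 170 kb apart, was the only histone pair called in all 24 libraries. Its ratio was 3.07 ± 0.604, from 2.30 in NT to 5.12 in LM. The Hist1h2ad bin also met the Hist1h2ab bin in 22 libraries (3.35 ± 0.732), and Hist1h4d met the Hist1h2bb bin in 21 (2.61 ± 0.496). Of 31 pairs called in this subcluster, 11 were in at least 12 libraries. Pairs within the first subcluster were called less regularly: 0 to 6 of 19 per pooled set, and none of 7 such pairs in more than 7 libraries. No pair of the third and the fourth subcluster (13 possible), and no pair within chromosome 3 (7 possible), was called in a pooled set.

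A larger share of the contacts among histone bins than of their other contacts recurred across tissue-stages. Of 53 distinct histone-to-histone interactions, 27 (50.9%) were in 6 or more tissue-stages, 4 in all 12 and 9 (17.0%) in 1. Of 251 interactions of a histone bin with another bin, 11.6% were in 6 or more and 45.8% in 1, against 15.5% and 48.3% of all 248620 interactions. These shares are given without a test, since neighbouring bins share reads and the same pairs recur.

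**Figure D4:**
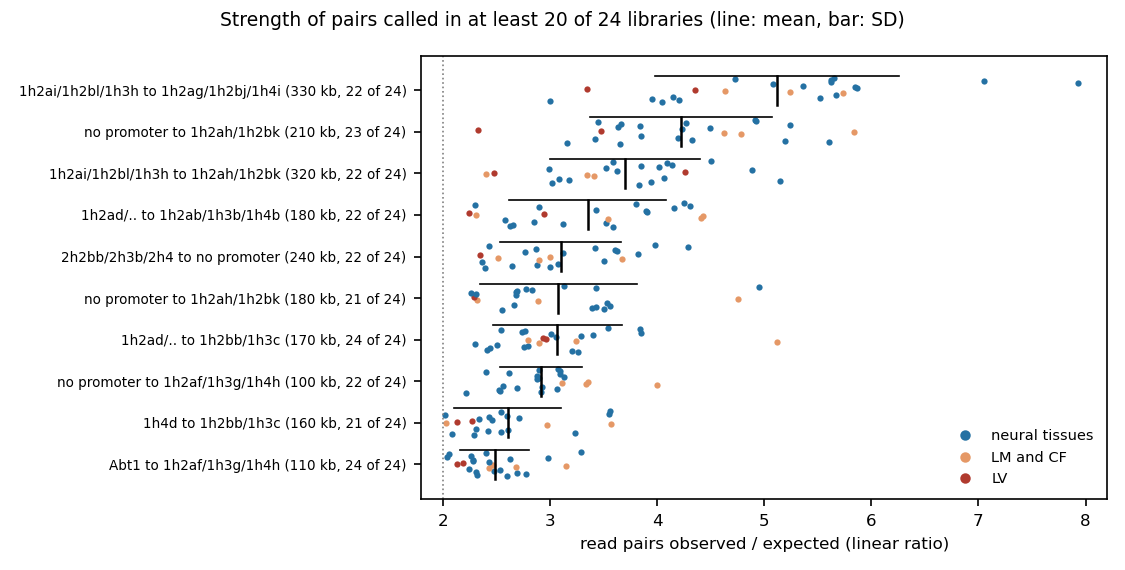
Ratio of observed to expected read pairs (x axis, linear) of the 10 pairs called in at least 20 of the 24 libraries (y axis, with distance and number of libraries), 1 point per library in which the pair was called, coloured by tissue. Vertical lines are means and horizontal bars SDs; the 1h2ai to 1h2ag pair has the highest mean, 5.12.

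Contacts with other genes were led by a few promoters near each cluster. Abt1, a gene for a basal transcription activator, met the bin of Hist1h2af, Hist1h3g and Hist1h4h at the start of the third subcluster over 110 kb in all 12 pooled sets and all 24 libraries, at 2.49 ± 0.322. Trim27, a RING finger protein gene, met 5 bins of the first and second subclusters from its 2 TSS bins, over 530 to 870 kb, and did so in all 12 tissue-stages. From the third subcluster, Carmil1 was met in 8 tissue-stages (480 to 540 kb), Cmah in 5 (560 to 570 kb) and the iron homeostasis gene Hfe, which lies inside the subcluster, in 5. On chromosome 11, Hist3h2a or Hist3h2ba met the bin of the mitochondrial ribosome gene Mrpl55 in 11 tissue-stages and Guk1 (guanylate kinase) in 11. Wnt3a, a Wnt ligand gene, was met in 4. Hist3h2a to Guk1 (240 kb) was called in 13 of 24 libraries at 2.98 ± 0.576. On chromosome 3 Plekho1 was met in 7 tissue-stages, as was Anp32e, for a chaperone that removes histone H2A.Z, at 3 TSS bins. Hist4h4 met Pde6h in LM and Atf7ip in CF and in FB at E15.5, and its most recurrent pair of all was in 2 libraries.

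Several recurrent partners held no protein-coding TSS. On chromosome 3, bins starting at 96490001 and 96500001 met histone bins in all 12 tissue-stages, and the latter met the Hist2h2bb bin (240 kb) in 22 of 24 libraries at 3.10 ± 0.565. Its CTCF site is printed above and points back towards the cluster. The printed Hist2h2bb site is on the same strand and points away from this partner, so the 2 sites did not face each other. The printed site of the bin starting at 96490001 points away from the cluster. Forward sites of the Hist2h2bb bin were in at most 2 lists each. On chromosome 13 the bin starting at 21820001, between 2 histone bins of the first subcluster, met the Hist1h2ah bin (210 kb) in 23 libraries at 4.22 ± 0.847. It had no CTCF site in any list, and 78.0% of its 31-base words occur once. The bin starting at 21790001 met 6 histone bins in 11 tissue-stages, and 45.7% of its words occur once.

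Histone interactions spanned a median of 165 kb in LM and of 230 to 270 kb in the other 11 pooled sets, with a median over the 12 of 250 kb. All interactions with a TSS bin had medians of 260 to 300 kb, and 180 kb in LV. Histone contacts thus spanned less than other promoter contacts in all sets but LV, where they spanned 240 kb. When both ends were histone bins the median was 110 kb in LM and 170 to 230 kb elsewhere. In LM 6 of 33 histone-to-histone contacts joined the first and second subclusters, the fewest of any tissue-stage, and 27 lay within a subcluster. In single replicates the histone median was 105 to 250 kb. The distances between clusters are fixed by where the genes lie, so these medians were not tested.

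CTCF was bound at fewer ends of histone-to-histone contacts than of other promoter-to-promoter contacts. A bin was counted as bound when it held the midpoint of a CTCF peak with a motif in that tissue-stage. Over the 12 tissue-stages both ends were bound in 21.8 ± 4.69% (SD) of histone-to-histone contacts, against 36.9 ± 4.94% of all contacts between TSS bins, and neither end in 36.1 ± 7.94%, against 15.1 ± 3.14%. The ranges of the latter share did not overlap (22.2% to 45.5%, and 8.99% to 19.6%). With contacts to other bins included, both ends were bound in 26.6 ± 5.33% (15.6% in LM to 37.5% in FB at P0) and neither in 21.3 ± 5.43%, against 28.9 ± 3.48% and 16.9 ± 3.06% for all interactions with a TSS bin. The bins themselves were bound about as often as others: 10 to 15 of 31 in a tissue-stage, or 38.2 ± 4.93%, against 33.6 ± 3.12% of TSS bins. The motif was required throughout, and it left out more of the histone bins. A mean of 11.8 histone bins were bound and 13.9 held any peak, against 33.6% and 35.2% of TSS bins. The Hist1h3e bin, counted as unbound, had a peak without a motif in all 12 lists.

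CTCF sites differed among the recurrent contacts, also among those between the first and second subclusters. Among histone-to-histone contacts with 1 motif direction at each end, 77.3% of 44 (summed over tissue-stages, so that 1 pair can count up to 12 times) pointed towards each other, against 45.3% of 26261 between TSS bins. Contacts with such facing motifs numbered 2 to 5 per tissue-stage (median 2). Hist1h2ai to Hist1h2ah and Hist1h2ai to Hist1h2ag were among them. They had a forward site at the former and a reverse site at the latter in every list. Other contacts between the first and second subclusters had few or no such lists at 1 end. Hist1h2bm, which met the Hist1h2ag bin, had a site in 2 lists. The Hist1h1b bin, which met the Hist1h2ah bin, had a site in 0. In the third subcluster the contact called in all libraries had no CTCF site in any list at the Hist1h2ad bin, and 3 lists with one at the Hist1h2bb bin. Hist1h2ad to Hist1h2ab, in 22 libraries, had none at either end in any list. Bound in all 12 lists in this subcluster were the Hist1h1d bin, the Hist1h1c bin and the bin of Hist1h1t and Hist1h4c, Hist1h1t being the H1 gene known from testis. Whether CTCF takes part in any of these contacts was not tested.

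To ask whether histone contacts differed between tissues and stages, interactions per TSS bin were counted in each of the 24 libraries and scaled to the median library total. limma was fitted to log2(scaled number + 1) over the 5316 TSS bins with a mean of at least 1. Of the 31 histone bins 21 passed this filter, and the other 10 (the Hist1h2aa, Hist1h2ao, Hist1h2ap, Hist1h2bh, Hist1h1e, Hist2h2ab, Hist2h3c2, Hist2h2aa1, Hist3h2ba and Hist4h4 bins) were not tested. A bin can pass through 1 high group, so counts over the 21 are descriptions. Calls are at an adjusted p below 0.05, Benjamini-Hochberg over all 5316 bins. edgeR's quasi-likelihood test took the unscaled numbers together with the library totals, so it too adjusts for these totals. It was added after the data were seen. It is given beside limma because limma made more false calls on simulated numbers in the LV and neural comparisons. The 3 comparisons share libraries.

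In LV, 3 histone bins had more scaled interactions than the mean of the 6 other E12.5 tissues by both limma and edgeR, 4 more by limma alone, and 0 had fewer by either. In this comparison limma called 48.5% of all bins, 19.2% as higher and 29.3% as lower, and edgeR 18.4%, 11.3% as higher. The median log2 difference was 0.78 over the 21 bins and -0.34 over all bins tested. The Hist1h2ah bin had 11 and 8 interactions in the 2 LV libraries, or 18.95 and 18.2 scaled. The 12 other E12.5 libraries had 2 to 10 (median 7.5), or 4.15 to 12.9 scaled (median 7.24), so that the groups overlapped before scaling and not after. Its log2 difference was 1.22 ± 0.28 (SE), with an adjusted p of 0.00168 by limma and of 0.0135 by edgeR. The Hist1h2ag bin had 8 and 5 in LV and 0 to 8 in the others, with a log2 difference of 1.34 (adjusted p = 0.0209 by limma, 0.0372 by edgeR). The Hist1h2ab bin had 5 in both LV libraries and 1 to 6 in the others, with a log2 difference of 1.35 (adjusted p = 0.00561 by limma, 0.0436 by edgeR).

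The other 4 bins called higher in LV by limma were the Hist1h2bb bin (0.97 on the log2 scale), Hist1h4d (1.00), the Hist1h1d bin (0.93) and the Hist1h1c bin (1.11). With edgeR these 4 were not called. Without scaling limma called 0 of the 21 bins (0.53 on the log2 scale for the Hist1h2ah bin, adjusted p = 0.169). LV libraries held 42 and 48 histone interactions of 11396 and 15016 in all, and the 12 other E12.5 libraries 20 to 57 of 12461 to 33700. Leaving out replicate 2 of LV left 1 call, the Hist1h2ah bin, and leaving out replicate 1 left 4.

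The 4 neural tissues of E12.5 had fewer scaled interactions than LM and CF at 2 histone bins by both limma and edgeR, and by limma alone at 6 more, with 1 higher. In this comparison limma called 32.7% of all bins, 20.4% higher and 12.3% lower in neural tissues, and edgeR 16.7%, 7.66% lower. The median log2 difference was -0.83 over the 21 bins and 0.15 over all. The bin of Hist1h1t and Hist1h4c had 3, 4, 2 and 2 interactions in the LM and CF libraries, and 0 to 2 in the 8 neural libraries, 4 of which had a call. The scaled groups did not overlap, the lowest LM or CF library being at 2.73 and the highest neural library at 2.17. Its log2 difference was -1.69 ± 0.37 (SE), with an adjusted p of 0.00131 by limma and 0.0149 by edgeR. The bin of Hist2h2ac and Hist2h2be, an H2A and an H2B gene, had 2, 1, 2 and 3 in LM and CF and 0 to 2 in neural libraries, 3 of 8 with a call. It differed by -1.40 ± 0.34 (SE; adjusted p = 0.00302 by limma, 0.0192 by edgeR).

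The 6 other bins called lower in neural tissues by limma were the Hist1h2ac bin (-1.34), the Hist1h1c bin (-1.16), the Hist1h1d bin (-1.11), the Hist1h2ab bin (-1.0), the Hist1h2ad bin (-0.83) and the Hist1h2bb bin (-0.83). All lie in the third subcluster, as does the Hist1h1t bin. The Hist3h2a bin, shared with Trim17, was called higher in neural tissues (log2 difference 0.99, adjusted p = 0.0457 by limma). It had a call in 7 of 8 neural libraries and 1 of 4 of the others. edgeR called neither the 6 lower bins nor the Hist3h2a bin. The Hist1h2ah, Hist1h2ag and Hist1h2ai bins, which carry the contacts between the first and second subclusters, were not called by limma (-0.11, 0.16 and 0.04). Leaving out replicate 1 of LM left 2 calls, and replicate 1 of CF 4.

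Between early FB (E12.5 and E13.5) and late FB (E16.5 and P0), 3 histone bins were called by limma, 1 higher and 2 lower, in a comparison with 13.6% of all bins called, 7.52% higher and 6.09% lower. The Hist3h2a bin also holds the TSS of Trim17. It had 0, 1, 1 and 2 interactions in the early libraries and 8, 2, 15 and 12 in the late ones. In scaled numbers these were 0 to 1.91 early and 1.41 to 7.22 late, so 1 late library (replicate 2 of E16.5) lay within the early range. The log2 difference was 1.53 ± 0.43 (SE), with an adjusted p of 0.0213 by limma and 0.0250 by edgeR. Hist1h2bm, an H2B gene of the first subcluster, had 1, 3, 3 and 3 early and 1, 0, 1 and 1 late, and its scaled ranges did not overlap. It differed by -1.40 ± 0.35 (SE; adjusted p = 0.00992 by limma, 0.0240 by edgeR). The Hist1h2bb bin had 5, 4, 3 and 3 early and 3, 1, 3 and 2 late, and differed by -1.23 ± 0.29 (SE; adjusted p = 0.00687 by limma, 0.0509 by edgeR).

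edgeR called 2 histone bins in FB, against 10.3% of all bins, 5.1% higher and 5.21% lower. The Hist1h1t bin had 0 interactions in the 4 early libraries and 2 in each late library, and was not called (log2 difference 1.14, adjusted p = 0.0791 by limma). Late libraries held 35291 to 63868 interactions in all and early ones 16075 to 30876. The median over the 21 bins was -0.25 and turned to 0.37 without scaling, where the median over all bins was 0.72. No direction is therefore read from this median. The direction of the called bins held without scaling, and the sizes given are those of the scaled fit. On chromosome 11, early libraries had 0 to 3 histone interactions and late ones 5 to 20, and on chromosome 13 they had 21 to 39 and 30 to 51. Leaving out replicate 2 of E16.5 left 1 call.

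**Figure D5:**
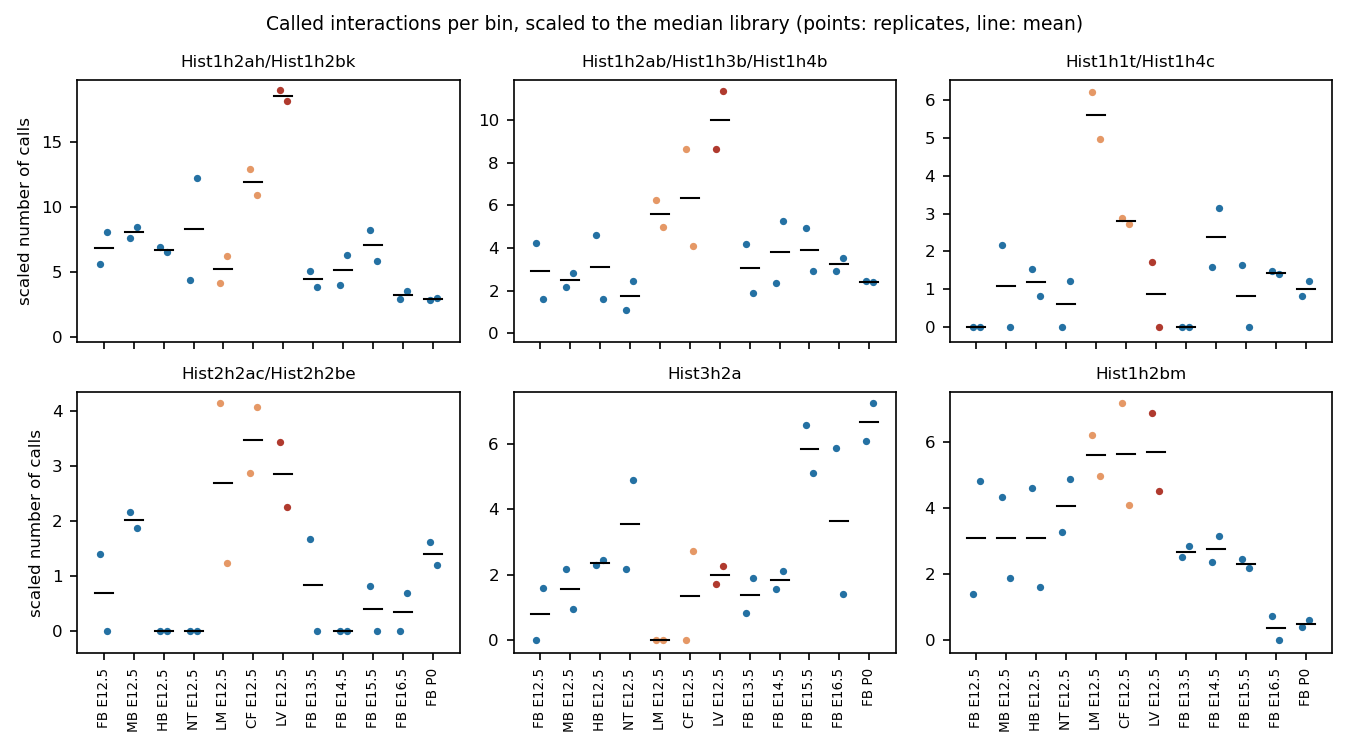
Number of called interactions of 6 histone bins in each of the 24 libraries, scaled to the median library total (y axis), by tissue-stage (x axis), with a line at the mean of each pair of replicates. The LV points of the Hist1h2ah bin, at 18.2 and 18.95, lie above all others, and the Hist3h2a bin rises to 6.08 and 7.22 in FB at P0.

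Strength was compared only for pairs called in every library of both groups. In LV against other tissues 2 histone pairs could be tested, and 0 were called by limma, against 33.5% of 996 pairs (0.402% higher, 33.1% lower), with 0 at an unadjusted p below 0.05, against 47.1% of all. The pair of the Hist1h2ad and Hist1h2bb bins had a geometric mean ratio of 2.95 in LV and 2.91 in the others, a log2 difference of 0.02 ± 0.16 (SE). In neural tissues against LM and CF 3 could be tested and 0 were called by limma, against 9.71% of 2019 (5.35% higher, 4.36% lower), with 2 at an unadjusted p below 0.05, against 22.6% of all. The lowest adjusted p by limma was 0.0523, for the Hist1h2af bin with the bin next to Abt1 (geometric means of 2.67 in neural tissues and 3.44 in LM and CF). In late against early FB 9 could be tested and 0 were called by limma, against 6.78% of 5351 (6.39% higher, 0.392% lower), with 1 at an unadjusted p below 0.05, against 24.5% of all. There Hist1h2ai to Hist1h2ag had geometric means of 4.52 early and 5.71 late, a log2 difference of 0.34 ± 0.20 (SE). No other tool was run on the pairs.

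Genes that work with these histone genes were described from 4 lists, by limma with edgeR beside it. Only bins that passed the filter above were tested. A bin can pass it through 1 high group, so these counts and medians describe the tested bins, not the whole lists. The 17 DNA replication genes had 26 TSS bins, of which 9 were tested. Of these 9, 2 were higher in LV by both tools. They were the bins of the origin licensing gene Cdt1 (3.09 on the log2 scale by limma) and Rrm2, for a ribonucleotide reductase subunit (1.38). limma alone called 3 more higher, Ccne2, for cyclin E2 (1.58), Mcm2, for a helicase subunit, and 1 Cdc6 bin (1.25), and Mcm6 lower (-1.44). The other Cdc6 bin was at -0.23 in LV and was not called. Without scaling limma called Cdt1 (2.28) higher and Mcm6 lower, and Rrm2 had 0.73 (adjusted p = 0.0627). In pooled numbers, not scaled, Cdt1 had 9 in LV and 3 to 8 in the other E12.5 tissues, while Rrm2 had 6 in LV and 3 to 7, and Ccne2 4 and 1 to 6. The median of the 9 tested bins by limma was 1.25 in LV, 0.17 in neural tissues and -0.35 in late FB. In late FB Mcm6 was lower by both tools (-1.53 by limma). In neural tissues Cdc6, also of origin licensing, was lower at both of its bins by limma alone (-1.09 and -0.99).

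The 13 genes of the histone locus body and histone mRNA processing had 24 TSS bins, of which 5 were tested. Calls among these 5 came from limma alone. It called Lsm10, for a subunit of the U7 particle, lower in LV (-1.26) and in neural tissues (-1.23), and Cpsf2, for a cleavage factor subunit, lower in LV (-2.11). In late FB it called Lsm11, also of the U7 particle (1.33), and the exonuclease gene Eri1 (1.04) higher. The median of the 5 tested bins was 0.12 in LV, -0.31 in neural tissues and 1.04 in late FB. Of 15 chaperone bins 3 were tested, and limma called Rbbp4 lower in late FB (-1.16), again alone. Of 14 bins of replication-independent variants 3 were tested. Among these, H2afz was higher in LV by both tools (1.48 by limma), with 6 pooled interactions in LV and 3 to 14 in the other E12.5 tissues. H1fx was higher in neural tissues by limma alone (1.00). The percentages of all bins called in each comparison, given above, apply to these lists too.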

How the data were processed

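H3K4me3 PLAC-seq had been performed in 24 libraries (2 replicates of 12 tissue-stages), and CTCF ChIP-seq in the same tissue-stages. The authors mapped reads to mm10, kept uniquely mapped, deduplicated pairs, counted read pairs between 10-kb bins, and ran MAPS on bin pairs with an H3K4me3 peak at an end. Each deposited interaction gives the count of read pairs, the expected signal from the MAPS regression and an FDR (a p-value adjusted by the authors). Only pairs at an FDR below 1%, a count of at least 2 times the expected, 20 kb to 1 Mb and on the 19 autosomes are listed. Replicate files are not downsampled. For the pooled files the authors had summed replicates and downsampled them to equal reads per chromosome. Raw contact maps were not analysed here, so a pair that is not listed has no value. CTCF files hold MACS2 peaks with the authors' fold enrichment over input (a ratio), from peaks of pooled libraries found in both biological or technical replicates (the labels list 1 library at P0). Of 2 lists per tissue-stage, the one with the peak numbers the study gives was used. The other limb list was assigned by its abbreviated name, the only one left.

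Gene starts were taken from GENCODE M21, all transcripts included, on GRCm38, the mm10 assembly. The members and lists were chosen with earlier results of these data known. In totals over the histone bins each interaction and each bin was counted once. In numbers per bin an interaction between 2 TSS bins was counted at both. Numbers per library scale with its total, which limits small differences. Depth in reads was not given in the files. Intervals were not computed, and p-values measure the spread between 2 replicates per tissue-stage, which the labels call biological. The bins or pairs named are those called in a comparison (up to 10 per direction), those with the most pooled interactions in each subcluster (3, or 1 in those of fewer than 5 bins), and per chromosome up to 6 promoter partners and 3 pairs in most libraries. Other pairs and bins in the text were chosen after their values were seen. R 4.3.3, limma 3.58.1 (trend, pseudocount 1) and edgeR 4.0.16 were used, with Python 3.11.15 for the rest. 1 limma fit held all 24 libraries with a mean per tissue-stage. Pairs were tested as log2(count/expected). The CTCF matrix (19 positions) was built from the 5000 strongest peaks and searched at a match threshold of 0.0001. The tests across bins and the motif search were tested on simulated data. edgeR, thinning of the calls to the smallest library, and both edgeR and unscaled fits of the gene lists were added after seeing the data. A marker gene and a partner bin are not reported here.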

Additional observations from a re-analysis of the deposited data

How the results depend on the processing

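Each result was recomputed with 1 choice changed. The 7 histone bins called in LV by limma became 0 without scaling, 1 at a count/expected of at least 3, 11 with genes as features, 3 with edgeR and 1 with calls thinned to the smallest library, and 1 to 9 when leaving out 1 library. The 9 called in neural tissues became 4, 1, 19, 2 and 3 under the same 5 settings, and 2 to 11 when leaving out 1 library. The 3 called in FB became 5 without scaling, 0 at a count/expected of at least 3 and 1 after thinning, and 1 to 4 when leaving out 1 library. The 0 pairs called in neural tissues became 1 without replicate 2 of FB at E12.5 or without replicate 1 of LM. edgeR and thinning were chosen after seeing the data. Genes as features count a shared bin several times. No value of a named bin changed direction in the 603 refits of named bins, and 118 lost the call. The median of 81.5 interactions was 44.75 when each tissue-stage took the mean of its 2 replicates, 61.5 at an FDR below 0.001, 27.5 at a count/expected of at least 3 and 118.5 with neighbouring bins added. The median distance of 250 kb was 225, 227.5 and 310 kb in the first 3 of these settings. The 8.92 contacts between subclusters were 6.75 in single replicates, 5.08 at a count/expected of at least 3, and 22.2 with subclusters split at gaps over 50 kb, which adds pairs within the third. The 26.6% of interactions with both ends bound was 32.2% at a count/expected of at least 3 and 32.0% with peaks without a motif. For the other changes the cause was not tested.

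Replicate numbers were shared by all groups, but did not pair the samples: the deviations of same-numbered libraries correlated at -0.139 to 0.0846 over 66 pairs of groups. With the replicate block, 6, 9 and 3 bins were called in the LV, neural and FB comparisons, and 0 pairs in each.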
